A study of Rattus norvegicus with 18 samples.

Results

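The genes described here are the MHC class II genes of the rat and those that act beside them, followed in cerebral cortex after subarachnoid hemorrhage (SAH). They were chosen by gene symbol and are 10 of the 30735 genes in the deposited count table. RT1-Ba, RT1-Bb, RT1-Da and RT1-Db1 encode the chains that present peptides. Cd74 encodes the invariant chain, RT1-DMa and RT1-DMb the DM heterodimer, Ciita the class II transactivator, Ifi30 a lysosomal thiol reductase and Cd86 a costimulatory ligand. The family was taken up with its differences between SAH 7d and SAH 1d, and between SAH 1d and sham, already known, so the fold changes of these 10 genes are given below as a description and support nothing by themselves.

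RNA sequencing was performed on 18 libraries of cerebral cortex from adult Sprague Dawley rats, an outbred stock, with 6 rats in each of 3 groups. In the SAH groups an intracranial artery was perforated from inside with a filament, and cortex was taken 1 day (SAH 1d) or 7 days (SAH 7d) later. The sham group had the operation without perforation, and the sources used here give neither the sex of the rats nor a separate sham group for each day, so time and injury are compared against 1 set of sham rats. The study's methods describe cortex of the operated side, whereas the labels speak of both sides.

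Class II molecules carry peptides from the endosome to the cell surface, where CD4 T cells read them. An alpha and a beta chain pair in the endoplasmic reticulum around the invariant chain, proteases trim that chain in the endosome, and DM exchanges its last fragment for an antigenic peptide. CIITA is the master regulator that switches on the chains, the invariant chain and DM, and it acts through factors bound to the X and Y boxes of their promoters. In healthy brain parenchyma class II is scarce, and microglia and border macrophages are known to take it up after injury.

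The proximal promoters are shown because in class II genes they hold the boxes bound by the factors through which CIITA acts. Of the 10 genes, 8 had a promoter entry in RefSeq (rat build GRCr8, from 250 bases before to 50 bases after the annotated start), and Ciita and RT1-DMb had none. A search on both strands for X box letters (ACNGATG), followed on the same strand by a Y box (ATTGG) after 10 to 40 bases, found the pair in 4 of the 8. The pair was present in 81 of 33469 rat promoters (0.242%), the X box letters, with or without a Y box, in 10.2% and a Y box in 37.5%. In the lines below the first capitals mark the X box letters and the next the Y box, and each sequence reads 5′ to 3′ on the transcribed strand.
RT1-Da, chr20:4515316-4515385, plus strand: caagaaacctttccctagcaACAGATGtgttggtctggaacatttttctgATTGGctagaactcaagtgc
RT1-Db1, chr20:4560223-4560291, minus strand: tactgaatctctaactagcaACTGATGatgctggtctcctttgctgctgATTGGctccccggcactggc
RT1-Bb, chr20:4604160-4604228, minus strand: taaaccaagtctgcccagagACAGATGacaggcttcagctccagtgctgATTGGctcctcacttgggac
RT1-DMa, chr20:4712380-4712449, minus strand: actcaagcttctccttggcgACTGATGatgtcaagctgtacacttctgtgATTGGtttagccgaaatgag

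In all 4 promoters the boxes stood 22 or 23 bases apart, and the X box letters began 79 to 109 bases before the annotated start. RT1-DMa carried the arrangement found at 3 of the 4 chains. The pair was also present in the promoters of RT1-DOb and RT1-Db2, class II chains outside the 10 genes, with 20 and 21 bases between the boxes. RT1-Ba and Cd74 held a Y box without these X box letters, and Cd86 and Ifi30 held neither. A match describes letters only, and the absence of a match says nothing about the factors that bind there.

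Depth ranged from 27270026 to 38271014 counts per library, and all 10 genes were among the 18444 tested. Library SAH 7d-5 stood apart, with the highest summed microglial, border macrophage and fibroblast markers of all 18 libraries and the lowest summed neuronal markers. SAH 1d-3 stood apart within its group for several of the 10 genes. Levels are given as FPKM, the authors' fragment counts scaled to gene length and library size, and each trio of values is the lowest, median and highest of 6 rats.

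The chains of the B molecule were scarce in sham cortex and abundant at 7 days. RT1-Ba, its alpha chain, measured 0.882, 1.37 and 4.78 FPKM in sham, 1.79, 2.44 and 5.92 in SAH 1d, and 6.84, 33.1 and 82.2 in SAH 7d. RT1-Bb, its beta chain, measured 0.246, 0.517 and 1.66 FPKM in sham, 0.764, 1.21 and 2.14 in SAH 1d, and 3.17, 8.12 and 14.1 in SAH 7d. For both chains sham and SAH 1d overlapped, whereas every SAH 7d library lay above every library of the other groups.

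The chains of the D molecule were likewise highest at 7 days, with 1 overlapping library on each side. RT1-Da, its alpha chain, measured 2.05, 3.98 and 5.27 FPKM in sham, 3.93, 4.33 and 13.3 in SAH 1d, and 10.1, 52.4 and 113 in SAH 7d. RT1-Db1, a beta chain, measured 0.455, 0.967 and 2.95 FPKM in sham, 1.70, 2.15 and 5.89 in SAH 1d, and 3.52, 23.1 and 34.9 in SAH 7d. SAH 1d-3 gave the highest day 1 value of both chains and exceeded SAH 7d-4, so 5 of 6 SAH 7d libraries lay above all of SAH 1d.

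Cd74, the invariant chain, was the most abundant of these genes per length at 7 days by its median. It measured 6.26, 10.96 and 13.9 FPKM in sham, 16.2, 18.9 and 30.4 in SAH 1d, and 29.9, 149 and 312 in SAH 7d. Unlike the chains it was separated from sham already at 1 day, with every SAH 1d library above every sham library. Within SAH 7d the same rat, SAH 7d-2, had the highest value of all 4 chains and Cd74, and SAH 7d-4 had the lowest of all of them except RT1-Bb, which was lowest in SAH 7d-1. The spread among rats at 7 days reached 12.0-fold between the highest and lowest FPKM for RT1-Ba and 4.43-fold for RT1-Bb.

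The DM genes took a different course. RT1-DMa measured 6.72, 7.36 and 7.78 FPKM in sham, 13.8, 17.3 and 22.7 in SAH 1d, and 7.92, 13.4 and 69.5 in SAH 7d. RT1-DMb measured 2.60, 5.16 and 6.84 FPKM in sham, 13.2, 16.6 and 20.8 in SAH 1d, and 5.96, 15.4 and 93.8 in SAH 7d. All 6 SAH 1d libraries lay above sham for both genes. At 7 days 3 of 6 libraries lay below every SAH 1d library for both, and the highest value, in SAH 7d-5, was followed at a distance by 19.3 FPKM for RT1-DMa and 22.8 for RT1-DMb, both in SAH 7d-2.

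Ifi30, which reduces disulfide bonds of antigens in the lysosome, followed the DM genes. It measured 5.39, 5.63 and 8.69 FPKM in sham, 14.2, 18.7 and 21.4 in SAH 1d, and 7.05, 13.4 and 261 in SAH 7d, where SAH 7d-5 again stood alone and the next library had 28.8. Cd86, which signals to CD28 on T cells, measured 0.551, 0.913 and 1.55 FPKM in sham, 2.45, 4.45 and 15.1 in SAH 1d, and 1.45, 4.83 and 41.6 in SAH 7d. Both genes were separated from sham at 1 day, and at 7 days they spanned the whole range from near sham to above SAH 1d.

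Ciita, the regulator, was close to the limit of detection. Its counts were 0 to 10 per library in sham, 6 to 49 in SAH 1d and 13 to 118 in SAH 7d. In FPKM it measured 0, 0.0367 and 0.0586 in sham, 0.0332, 0.0488 and 0.231 in SAH 1d, and 0.0793, 0.257 and 0.655 in SAH 7d. Sham and SAH 1d overlapped, with SAH 1d-3 alone holding the 49 counts, whereas all 6 SAH 7d libraries lay above all of sham and 4 of 6 above all of SAH 1d. In bulk tissue, more cells that express a gene and more RNA of it per cell cannot be told apart, which holds for each of these levels.

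**Figure D1:**
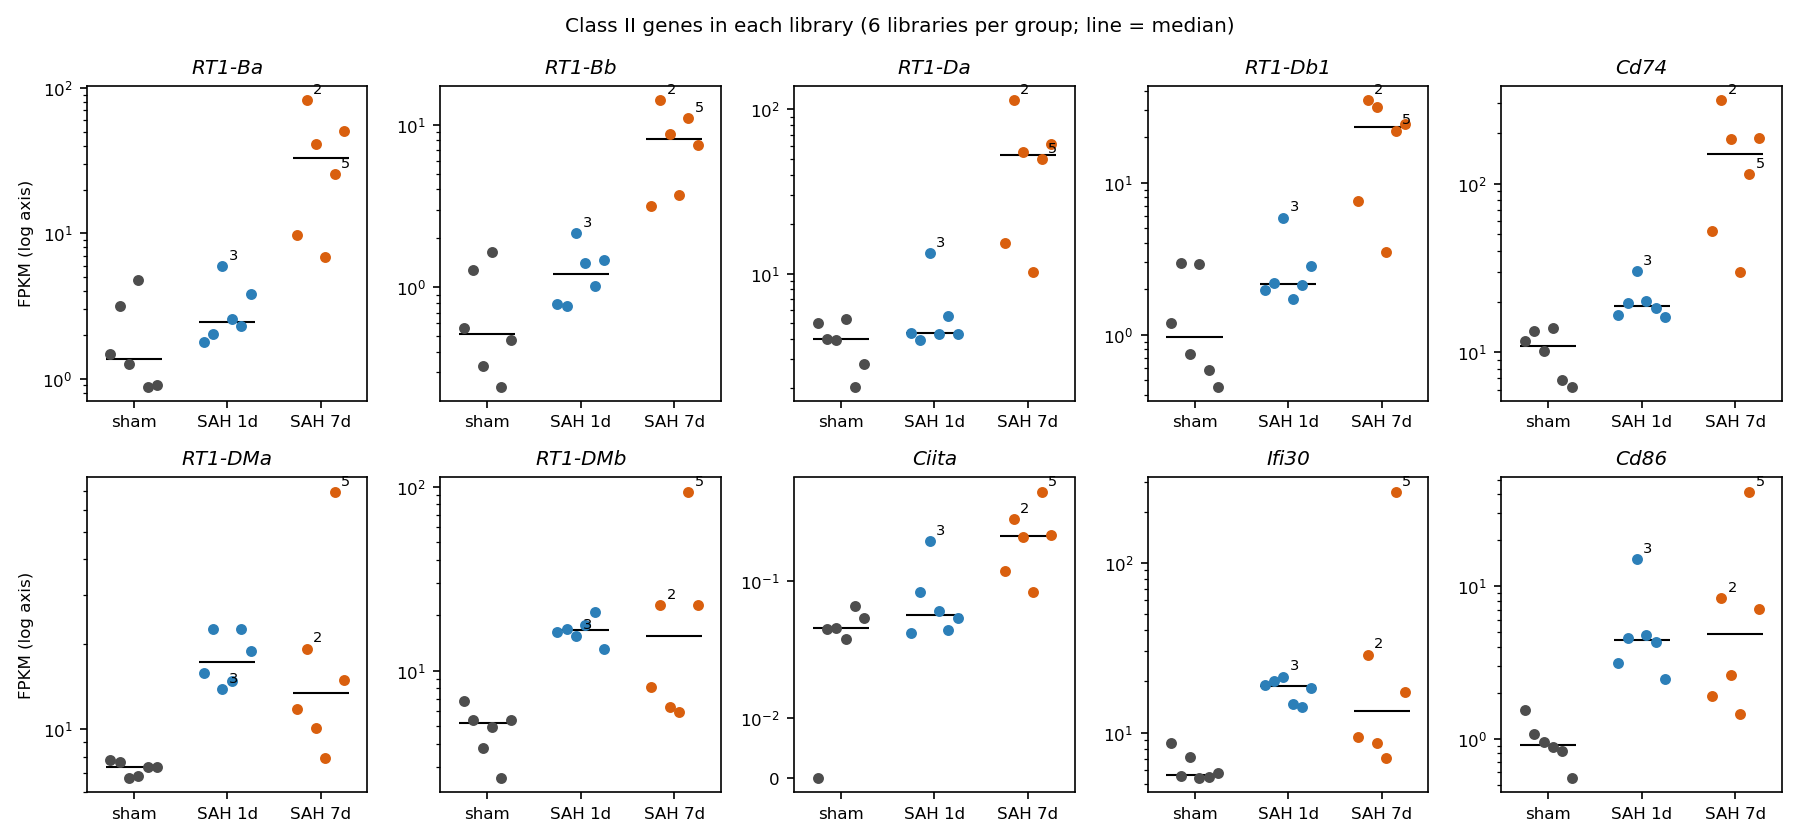
FPKM on a log axis of the 10 genes in each of 18 libraries, grouped as sham, SAH 1d and SAH 7d, with a line at each group's median; the axis of Ciita also reaches 0, and SAH 1d-3, SAH 7d-2 and SAH 7d-5 carry their replicate number. In the upper row the SAH 7d libraries sit highest, and in the lower row RT1-DMa, RT1-DMb, Ifi30 and Cd86 already sit above sham in all 6 SAH 1d libraries.

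Fold changes fitted by edgeR over all 18444 genes describe the same order of events. A gene was counted as a differentially expressed gene (DEG) when its Benjamini-Hochberg adjusted p was below 0.05 and its change at least 2-fold. Between SAH 1d and sham, 4 of the 10 genes were DEGs, all higher, against 5.57% of all genes tested. They were Cd86 with a log2 fold change of 2.40 (SE 0.47), RT1-DMb with 1.67 (SE 0.21), Ifi30 with 1.38 (SE 0.16) and RT1-DMa with 1.20 (SE 0.13). Without SAH 1d-3 the value of Cd86 was 1.75. In a joint fit of all 18 libraries, where the groups share 1 estimate of the spread, the calls of Ifi30 (adjusted p = 0.188 by edgeR) and RT1-DMa (0.0547) were lost.

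The remaining genes moved less at 1 day. Cd74, at a log2 fold change of 0.88 (SE 0.22), passed the adjusted p alone, which makes 5 of 10 against 14.9% of all genes higher by that rule, and was not called in the joint fit (adjusted p = 0.151 by edgeR). For the 4 chains the log2 fold changes lay between 0.52 (RT1-Da, SE 0.34) and 0.81 (RT1-Db1, SE 0.48), none past the threshold, and without SAH 1d-3 they lay between 0.10 and 0.43. Ciita gave 1.10 (SE 0.62), and 0.39 without SAH 1d-3, also not past it. The same 5 genes had no overlap between SAH 1d and sham, as had 8.32% of all genes in that direction.

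Between SAH 7d and SAH 1d the calls fell on the chains and Cd74. RT1-Ba gave a log2 fold change of 3.59 (SE 0.59), RT1-Da 3.13 (SE 0.57), RT1-Db1 2.94 (SE 0.53), Cd74 2.86 (SE 0.48) and RT1-Bb 2.71 (SE 0.40), equal to 12.1-fold, 8.76-fold, 7.65-fold, 7.28-fold and 6.54-fold. These 5 of 10 were DEGs, all higher, against 0.152% of all genes tested. By adjusted p alone the count was again 5 of 10, against 0.282%. RT1-Ba and RT1-Bb also had no overlap, as had 0.933% of all genes in that direction. The calls of RT1-Da and RT1-Db1 were lost when SAH 1d-1, SAH 1d-2 or SAH 1d-5 was left out, with adjusted p between 0.0518 and 0.0545 by edgeR, while their log2 fold changes stayed at 2.85 or more. Without SAH 7d-2, the library highest for all 4 chains, RT1-Db1 had an adjusted p of 0.0507 by edgeR.

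None of the accessory genes passed by edgeR in that comparison with all libraries in the fit. RT1-DMa gave 0.37 (SE 0.47), RT1-DMb 0.73 (SE 0.60), Cd86 0.97 (SE 0.79), Ifi30 1.69 (SE 0.84) and Ciita 1.88 (SE 0.59) on the log2 scale. Their positive signs rested on SAH 7d-5 for 4 of the 5: without it the values were -0.43 for RT1-DMa, -0.28 for RT1-DMb, -0.27 for Ifi30 and -0.28 for Cd86. The value of Ciita was 1.46 when SAH 7d-5 was dropped. When SAH 1d-3 was dropped it was 2.59 and passed, with an adjusted p of 0.0306 by edgeR, and with SAH 1d-3 and SAH 7d-5 both dropped it was 2.17 (adjusted p = 0.00753). The DESeq2 Wald test on all libraries also called Ciita, at 1.89 (adjusted p = 0.0330).

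Between SAH 7d and sham, edgeR called no gene at all, so the background was 0% for DEGs and 0% by adjusted p alone in either direction. At an unadjusted p below 0.05 it listed 2842 genes, all 10 of the family among them, and the DESeq2 Wald test called 358 DEGs higher and 12 lower, with 9 of the 10 genes among the former and Ifi30 given no adjusted p. The fitted log2 fold changes were 4.17 (SE 0.72) for RT1-Ba, 3.76 (SE 0.64) for RT1-Db1, 3.75 (SE 0.52) for Cd74, 3.66 (SE 0.54) for RT1-Da and 3.34 (SE 0.52) for RT1-Bb. The 5 structural genes and Ciita had no overlap between these groups, 6 of 10 against 0.922% of all genes. Over the 10 genes the median log2 fold change was 0.99 for SAH 1d against sham, 2.29 for SAH 7d against SAH 1d and 3.35 for SAH 7d against sham, beside 0.01, 0.03 and 0.00 over all genes. These comparisons share their libraries and are not independent of one another.

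**Figure D2:**
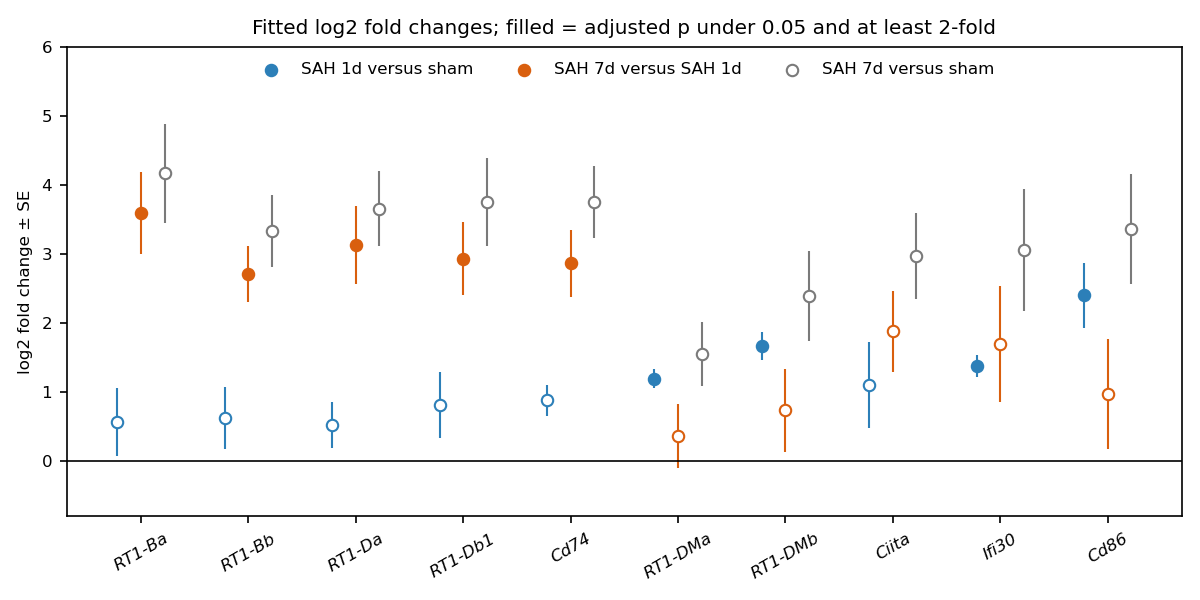
Log2 fold change with SE (bars) of the 10 genes in 3 comparisons of 6 against 6 libraries; filled points passed an adjusted p of 0.05 and 2-fold. The filled points of SAH 1d against sham are RT1-DMa, RT1-DMb, Ifi30 and Cd86, and those of SAH 7d against SAH 1d are the 4 chains and Cd74.

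The chains and Cd74 were next related to the DM genes within each library. The mean log2(FPKM + 0.1) of the 5 structural genes minus that of RT1-DMa and RT1-DMb was -1.38 ± 0.67 (SD, n = 6) in sham, -2.10 ± 0.65 in SAH 1d and 0.70 ± 1.30 in SAH 7d. Per library it ran from -2.17 to -0.38 in sham and from -2.62 to -0.88 in SAH 1d, so that 3 of 6 SAH 1d libraries lay below all of sham. In SAH 7d it was 0.20, 1.69, 2.35, 0.16, -1.32 and 1.13 in replicates 1 to 6. The mean of the structural genes thus exceeded that of DM per length in 5 of 6 SAH 7d libraries and in none of the other 12, and SAH 7d-5 was the exception. As a description the difference between SAH 7d and SAH 1d was 2.80, and it was 3.20 without SAH 7d-5. Single genes did not all go with the mean. In SAH 7d-1 RT1-Ba, RT1-Bb and RT1-Db1 (9.66, 3.17 and 7.57 FPKM) lay below RT1-DMa (11.9), as they did in SAH 7d-4 (6.84, 3.69 and 3.52 against 7.92). In sham-4, in turn, Cd74 stood at 2.04 times RT1-DMa.

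Single ratios of FPKM compare RNA levels gene by gene and say nothing of protein. Cd74 stood at 1.43 ± 0.46 (SD, n = 6) times RT1-DMa in sham, 1.19 ± 0.53 in SAH 1d and 9.43 ± 7.06 in SAH 7d, where it ran from 1.63 in SAH 7d-5 to 18.2 in SAH 7d-3. RT1-Da stood at 0.531 ± 0.179 times RT1-DMa in sham, 0.362 ± 0.297 in SAH 1d and 3.12 ± 2.30 in SAH 7d. The ratio of Cd74 to RT1-Da, and that of the DM genes to each other, moved less. Cd74 stood at 2.75 ± 0.49 times RT1-Da in sham, 3.80 ± 0.97 in SAH 1d and 2.96 ± 0.42 in SAH 7d, and RT1-DMa at 1.65 ± 0.61, 1.10 ± 0.24 and 1.11 ± 0.40 times RT1-DMb.

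The alpha and beta chains of 1 molecule were not equal in FPKM. RT1-Ba stood at 2.89 ± 0.72 times RT1-Bb in sham, 2.40 ± 0.35 in SAH 1d and 4.09 ± 1.99 in SAH 7d, with 1.85 in SAH 7d-4 and 6.78 in SAH 7d-6. RT1-Da stood at 3.73 ± 1.90 times RT1-Db1 in sham, with 1.36 in sham-2 and 6.16 in sham-6, and at 2.16 ± 0.43 and 2.45 ± 0.56 in SAH 1d and SAH 7d. Class II chains belong to a family of similar genes and the sources used here do not say how reads matching several were counted, so levels of single chains are uncertain to that extent.

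**Figure D3:**
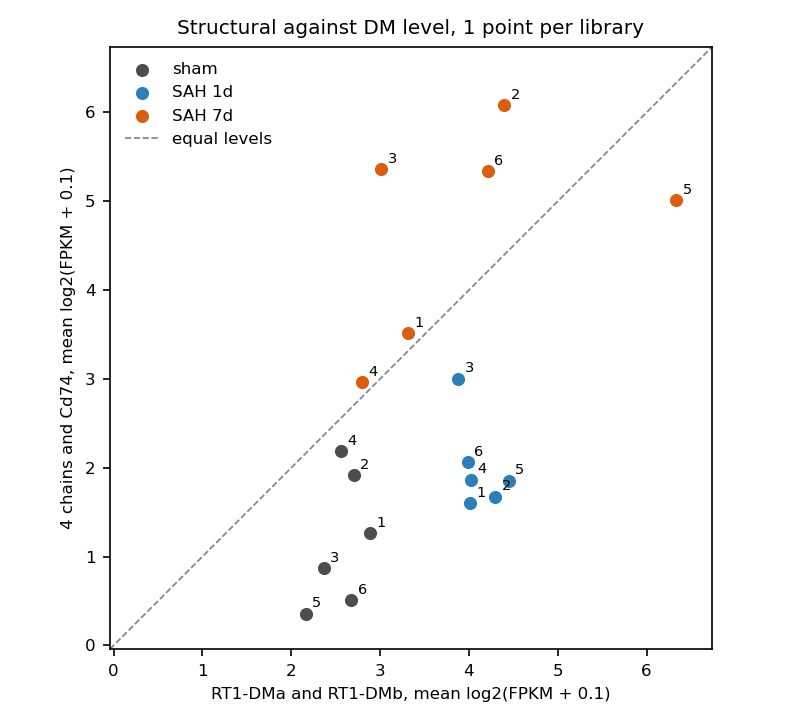
Mean log2(FPKM + 0.1) of the 4 chains and Cd74 (vertical axis) against that of RT1-DMa and RT1-DMb (horizontal axis), 1 point for each of 18 libraries with its replicate number and a dashed line of equal levels. SAH 1d lies right of sham, and 5 of 6 SAH 7d libraries lie above the line, with SAH 7d-5 below it at -1.32.

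The structural and accessory genes were then compared among rats of the same group. These are the same rats that gave the fold changes, so the values below are a description and not separate evidence. Pearson's r was computed over the 6 rats of each group between each of the 5 structural genes and each of the 5 accessory genes, on log2 CPM (library-scaled counts), giving 75 pairs. No pair passed after Benjamini-Hochberg adjustment over the 75, by an exact permutation test of Pearson's r or of Spearman's rho. With 6 rats the smallest p this test can give is 0.00139, at which a single pair cannot pass after adjustment over 75. The absence of calls therefore says little. An unadjusted exact p below 0.05 was found for 5 of the 75 pairs, where chance gives about 1 in 20. The pairs share genes and rats and are not independent. Among the 5 structural genes themselves r was 0.67 to 0.97 in sham, 0.73 to 0.94 in SAH 1d and 0.89 to 0.99 in SAH 7d.

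Ciita is described first, as the known regulator of the chains, Cd74 and DM. Its median r over the 5 structural genes was -0.26 in sham, 0.83 in SAH 1d and 0.82 in SAH 7d, and all 5 values were negative in sham and positive in both SAH groups. The difference between groups was not tested. In sham it was -0.88 without sham-1, the rat with no Ciita count, and the median rho of all 6 was -0.77. In SAH 1d that value rested on SAH 1d-3, without which the median r was -0.05 over 5 rats. In SAH 7d it was 0.99 without SAH 7d-5, the rat with the highest Ciita but not the highest chains. The r of Ciita in SAH 7d was 0.88 with RT1-Bb (exact p = 0.0319, adjusted p = 0.614, rho = 0.83 with exact p = 0.0583), 0.83 with RT1-Db1 (exact p = 0.0417, adjusted p = 0.614, rho = 0.60 with exact p = 0.242) and 0.82 with RT1-Da (exact p = 0.0444, adjusted p = 0.614, rho = 0.66 with exact p = 0.175). With the 2 rats farthest from the median chain level left out, SAH 7d-1 and SAH 7d-4, these became 0.49, -0.55 and -0.17, so they rest on those rats.

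The remaining 2 pairs below 0.05 were both of Cd74 in SAH 1d. Cd74 with Cd86 gave r = 0.99 (exact p = 0.00278, adjusted p = 0.208, rho = 0.94 with exact p = 0.0167) and 0.95 without the 2 farthest rats. Cd74 with Ciita gave r = 0.93 (exact p = 0.0417, adjusted p = 0.614, rho = 0.77 with exact p = 0.103) and 0.54 without them. For RT1-DMa the median r with the structural genes was 0.03 in sham, -0.45 in SAH 1d and 0.43 in SAH 7d, and for RT1-DMb 0.52, -0.22 and 0.47. Ifi30 gave -0.13, 0.43 and 0.41, and Cd86 gave 0.08, 0.77 and 0.58.

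These medians also rested on single rats. Without SAH 1d-3 those of SAH 1d were -0.01 for RT1-DMa, -0.19 for RT1-DMb, -0.57 for Ifi30 and 0.01 for Cd86. Without SAH 7d-5 those of SAH 7d were 0.79, 0.70, 0.80 and 0.87 in the same order, and without SAH 7d-4 they were 0.12, 0.22, 0.18 and 0.37. In sham that of RT1-DMb was 0.08 without sham-5, and without sham-4 that of RT1-DMa was 0.41 and that of Cd86 0.70. Between any 2 of the accessory genes r was -0.84 to 0.72 in sham (median 0.45), -0.60 to 0.91 in SAH 1d (median 0.02) and 0.853 to 0.995 in SAH 7d (median 0.96), a group in which SAH 7d-5 was highest for all 5.

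**Figure D4:**
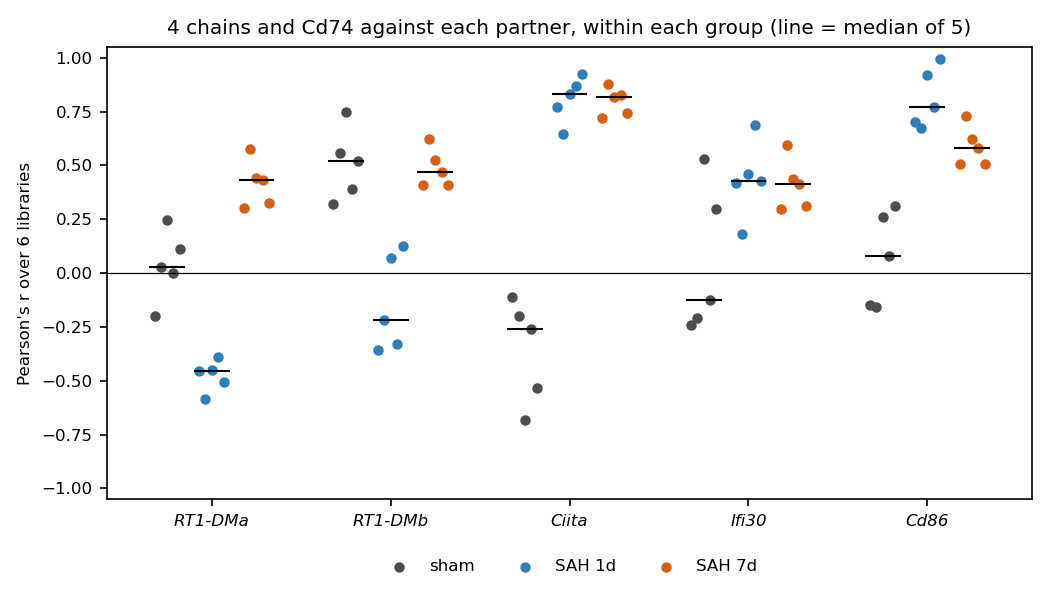
Pearson's r over 6 rats between each of the 4 chains and Cd74 and each accessory gene (5 points per group and partner), with a line at their median. For Ciita the medians are -0.26 in sham, 0.83 in SAH 1d and 0.82 in SAH 7d, and for RT1-DMa 0.03, -0.45 and 0.43. Without SAH 1d-3 the SAH 1d medians are -0.05 and -0.01, and without SAH 7d-5 those of SAH 7d are 0.99 and 0.79.

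Genes most like the structural 5 were ranked by Pearson's r of their log2 CPM with the mean of those 5, after each group was centred on its own mean, over 18 libraries and 14076 genes with a mean of at least 1 CPM. Ranks of 1 to 5 were the 5 genes themselves, each a part of the mean it was compared with, so these ranks say little. The next were Hcar2, a receptor for hydroxybutyrate and niacin (r = 0.79), C3, the central complement component (0.77), and RT1-CE10, a class I gene (0.76). They were followed by Polr2h, LOC108348771, Il1a, Mettl16, Heca, Abca8a and Plscr4, down to r = 0.69. Cd86 ranked 239, RT1-DMb 945, Ifi30 2417 and RT1-DMa 3425. These are descriptions over libraries that share depth and dissection, dominated by the wide spread of SAH 7d. C3 averaged 1.85 ± 1.15 FPKM in sham, 10.9 ± 1.20 in SAH 1d and 35.2 ± 31.9 in SAH 7d.

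The rest of the antigen presentation pathway was followed in 40 listed genes. Of these, 35 had a row and 30 were tested, and the other 5 were not analysed here. Between SAH 1d and sham 12 rose and 0 fell by the adjusted p of edgeR, against 14.9% of all genes higher and 10.5% lower. Between SAH 7d and SAH 1d 1 rose and 0 fell, against 0.282% and 1.08%. Between SAH 7d and sham none passed by edgeR. At an unadjusted p below 0.05 edgeR listed 19 of 30, beside 2842 of all 18444 genes. The DESeq2 Wald test called 8 higher, beside 406 of the 17916 genes to which it gave a p.

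Among class II transcription factors, 2 of 9 rose at 1 day by edgeR, beside 14.9% of all genes. Irf8, a macrophage and dendritic cell factor, rose from 2.94 ± 0.72 to 9.44 ± 1.93 FPKM (SD, n = 6 each), a log2 fold change of 1.56 with adjusted p = 0.000107 by edgeR. Spi1, which encodes PU.1 and specifies myeloid cells, rose from 2.02 ± 0.36 to 6.79 ± 2.55 FPKM (log2 fold change 1.64, adjusted p = 0.00048 by edgeR). Neither was called in the joint fit of 18 libraries, where 4 of the 12 pathway genes were (Cd274, Cd80, Irf1 and Jak2). The factors that bind the X and Y boxes did not pass in any comparison by edgeR with all libraries in the fit: Rfx5, Rfxap, Rfxank, Nfya, Nfyb, Nfyc and Creb1 had log2 fold changes between -0.17 and 0.28 at 1 day and between -0.05 and 0.30 from 1 to 7 days. Rfx5, for example, averaged 7.88 ± 0.52 FPKM in sham, 7.67 ± 0.50 in SAH 1d and 8.72 ± 0.83 in SAH 7d. The DESeq2 Wald test called Rfx5 lower at 1 day and higher from 1 to 7 days, and edgeR called Nfyb lower at 1 day when SAH 1d-3 was left out.

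In interferon gamma signalling 4 of 6 tested genes rose at 1 day, beside 14.9% of all genes. None rose from 1 to 7 days, beside 0.282% of all genes, a share at which none of 6 says little. Irf1, an interferon-induced activator of Ciita, rose by 1.70 on the log2 scale (adjusted p = 0.000954 by edgeR), from 3.67 ± 0.89 to 12.9 ± 5.87 FPKM, and averaged 8.84 ± 9.35 at 7 days. Jak2 rose by 0.76, Ifngr2 by 0.35 and Jak1 by 0.35, and Ifngr1 and Socs1 did not pass. Ifng itself, the ligand, had 2 counts in sham-4 and 0 in the other 17 libraries, so it was not detectable at this depth.

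Among the endosomal proteases and processing genes 3 of 7 rose at 1 day, beside 14.9% of all genes. They were Lgmn, which encodes asparaginyl endopeptidase (log2 fold change 0.96), Ctsb (0.78) and Ctsd (0.66). All had no overlap with sham, as had 8.32% of all genes in that direction. Ctss, the cathepsin known for the last cuts of the invariant chain, gave 0.20 (SE 0.17) at 1 day and 1.47 (SE 0.49) from 1 to 7 days, with adjusted p = 0.394 and 0.169 by edgeR. Its mean was 143 FPKM in sham, 179 in SAH 1d and 474 in SAH 7d.

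Of the costimulatory genes and T cell partners 3 of 6 rose at 1 day, beside 14.9% of all genes. Cd80, the second ligand of CD28, rose by 2.05 on the log2 scale, the inhibitory ligand Cd274 by 1.64 and Cd40 by 1.56 (adjusted p = 0.00278, 0.01 and 0.00073 by edgeR). From 1 to 7 days the call was Cd4, a coreceptor that binds class II and is carried in rats by macrophages as well as T cells, with a log2 fold change of 2.27 (SE 0.49, adjusted p = 0.0436 by edgeR). Cd4 averaged 3.88 FPKM in sham, 3.39 in SAH 1d and 15.6 in SAH 7d. All 6 SAH 7d libraries lay above all of SAH 1d, as for 0.933% of all genes. Its call was lost without any 1 of the 6 SAH 1d libraries, or without SAH 7d-2, SAH 7d-3 or SAH 7d-6, so it is weakly held.

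Other chains of the locus stayed low. RT1-DOa, the alpha chain of the DO molecule that restrains DM, had counts of 0 to 6 in sham, 0 to 4 in SAH 1d and 3 to 40 in SAH 7d and was too low to be tested. Its highest count was in SAH 7d-2, the library highest for the chains. RT1-DOb, its partner, gave -0.03 at 1 day and 1.21 (SE 0.59) from 1 to 7 days, with adjusted p = 0.957 and 0.369 by edgeR. RT1-Db2 and RT1-Ha had at most 4 counts in any library.

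**Figure D5:**
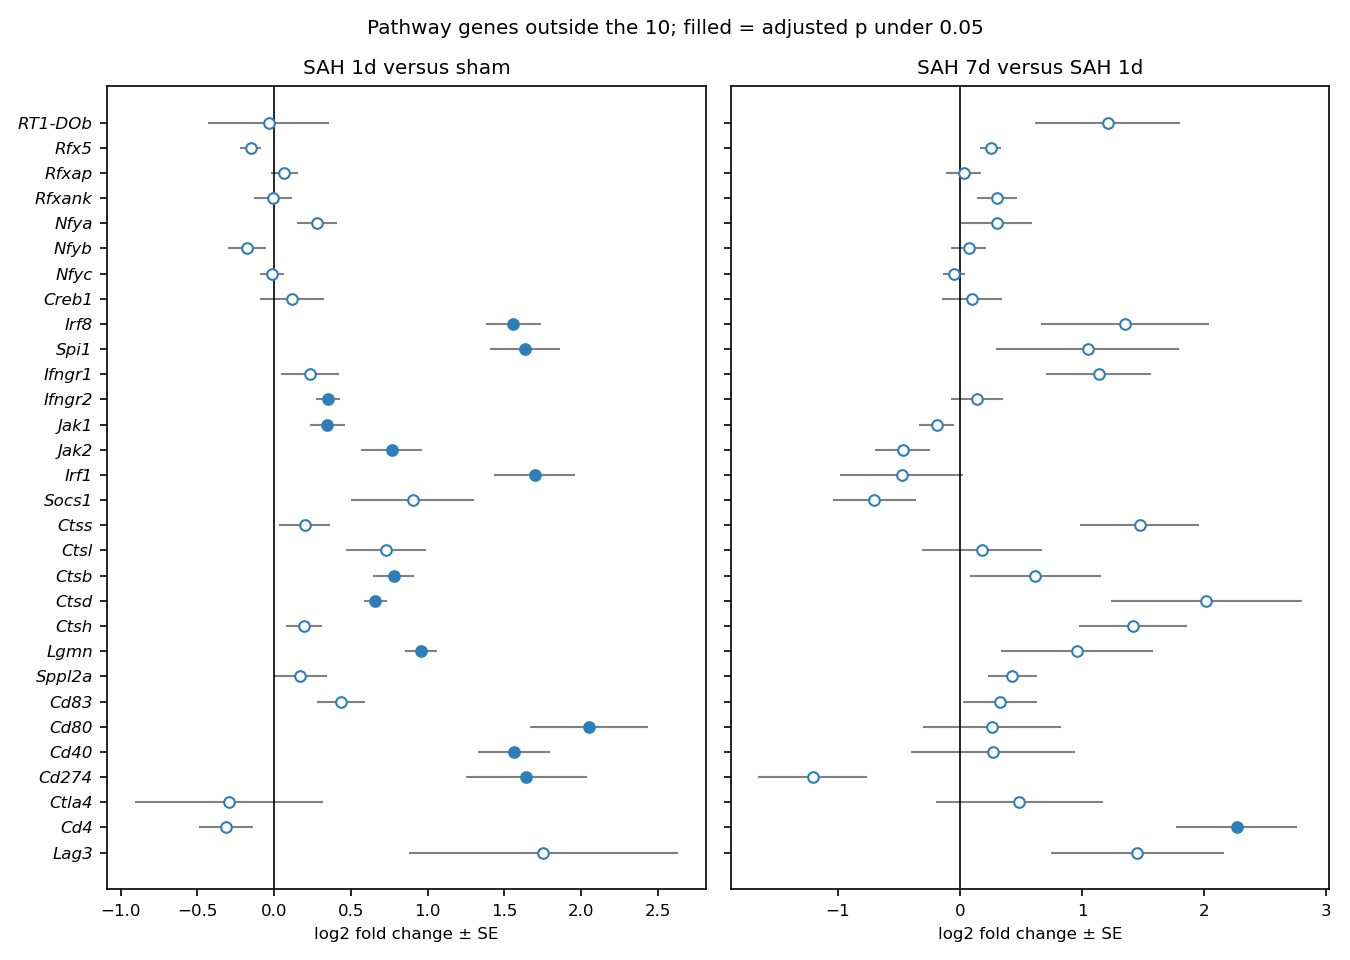
Log2 fold change with SE (bars) of the 30 tested pathway genes outside the family, for SAH 1d against sham (left) and SAH 7d against SAH 1d (right), with different horizontal scales; filled points had an adjusted p below 0.05. Filled are 12 genes on the left, all higher, and Cd4 alone on the right.

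Markers of cells that can carry class II moved with parts of these results. The 7 microglial markers summed to 299 to 543 CPM in sham, 335 to 416 in SAH 1d and 365 to 2655 in SAH 7d, with 1167 in SAH 7d-2 and 2655 in SAH 7d-5. The 5 border macrophage markers summed to 18.7 to 41.9, 23.0 to 41.0 and 25.6 to 206 CPM, and the 7 dendritic cell markers to 16.3 to 22.0, 21.7 to 59.4 and 20.2 to 51.9 CPM. Within these lists Itgax, an integrin of dendritic cells that other myeloid cells also carry, had 0 to 8 counts per library in sham, 115 to 1505 in SAH 1d and 10 to 563 in SAH 7d, highest in SAH 1d-3 and SAH 7d-5. It rose at 1 day with a log2 fold change of 6.44 (SE 0.73, adjusted p = 0.000102 by edgeR), as did Ccr7 with 1.72 (SE 0.46, adjusted p = 0.0160). The other dendritic cell markers tested, Flt3, Clec9a, Clec10a and Zbtb46, were not called at 1 day, with log2 fold changes between -0.12 and 0.57. Xcr1 was not tested. P2ry12, a receptor of resting microglia, fell by 1.19 on the log2 scale at 1 day (SE 0.35, adjusted p = 0.0251 by edgeR). The other microglial markers were not called at 1 day, with log2 fold changes between -0.81 and 0.40. SAH 7d-3 had 472 CPM of microglial markers, below sham-1 (543 CPM) and above every other sham library. Its border macrophage markers summed to 54.1 CPM, above every sham and SAH 1d library. By the mean log2 CPM of the same markers it stood at 2.58, below SAH 1d-2 (2.69) and SAH 1d-3 (2.59). Cd74 in SAH 7d-3 was 184 FPKM, above every sham and SAH 1d library. Of the monocyte list, Ccr2 and Plac8 had no row. The 2 markers with a row, Vcan and Fn1, summed to 75.1 to 124, 115 to 347 and 98.2 to 569 CPM, so these sums rest on those 2 genes alone. The part of these cells in the class II levels was not tested.

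Lymphocyte markers were near 0. The 4 B cell markers with a row summed to at most 1.23 CPM and the 5 T cell markers to at most 6.46 CPM, both in SAH 7d-5. The 4 choroid plexus markers summed to 4.27 to 63.4 CPM in sham, 22.2 to 1008 in SAH 1d and 9.70 to 46.1 in SAH 7d, with 1008 in SAH 1d-6 and 699 in SAH 1d-4, and Kl and Aqp1 of this list rose at 1 day (log2 fold changes 3.35 and 2.43, adjusted p = 0.0298 and 0.000134 by edgeR). SAH 1d-6 had the lowest Cd74, RT1-DMb and Cd86 of its group, but its RT1-Ba and RT1-Db1 were exceeded by SAH 1d-3 alone. In SAH 1d-4 Cd74 and Cd86 were exceeded by SAH 1d-3 alone, and RT1-DMb by SAH 1d-5 alone. The 6 neuronal markers summed to 5177 to 8504 CPM in sham, 4204 to 5289 in SAH 1d and 2040 to 7700 in SAH 7d, lowest in SAH 7d-5. All 6 fell at 1 day, the time at which DM, Ifi30 and Cd86 were higher, beside 10.5% of all genes lower. Snap25 fell by 0.73 on the log2 scale and Gad1 by 0.33 (adjusted p = 0.00225 and 0.0251 by edgeR). The part of these shifts in the class II levels was not tested.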

How the data were processed

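Cortical RNA from 18 rats (6 sham, 6 SAH 1d, 6 SAH 7d) was sequenced after library preparation with the NEBNext Ultra RNA kit. The authors deposited 1 table of whole-number counts and 1 of FPKM per gene, and their processing notes name fastp, HISAT2 and DESeq2 1.16.1. Those notes name the mouse build mm9, whereas the paper's methods name a rat build and the gene identifiers are those of rat, so no coordinate was taken from the table. The program that assigned reads to genes is not given in the sources used here.

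The 10 genes and the lists of pathway and marker genes were chosen with earlier results of these data known. Groups came from the labels. Genes with low counts were removed with edgeR's filter, which left 18444, and each comparison was fitted on its 12 libraries by edgeR 4.0.16 (quasi-likelihood, TMM scaling, Benjamini-Hochberg adjustment over all genes), in R 4.3.3. CPM used the same scaling, with a prior count of 2 on the log2 scale. FPKM as deposited were used on the log2 scale with a pseudocount of 0.1. The pathway genes named are those that passed in any comparison, Ifng and the other class II chains, and the genes most like the structural 5 are the 10 with the highest r. Ctss, Ifngr1, Socs1 and the box-binding factors were named after their values were seen, as were the genes most like DM. An adjusted p that DESeq2 left empty stayed empty. Alternatives were other scaling (DESeq2 1.42.0), the DESeq2 Wald test, no filter, a joint fit, the replicate number as a block, limma 3.58.1 on FPKM and each library left out. Promoters and loci came from RefSeq (GRCr8). Precision is limited by 6 rats a group and, for Ciita, by its counts.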

Additional observations from a re-analysis of the deposited data

Results flagged for a closer look

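In each group of 6 the highest or lowest of the 10 genes' levels was compared with the rest by Dixon's gap test on log2 CPM, and 4 of 30 sets had a library far from the others. Chance gives about 1 in 20. Library SAH 1d-3 accounted for 3 of them, as the highest of its group: RT1-Da at 16.3 CPM with the other rats between 4.55 and 6.76, RT1-Db1 at 7.10 CPM with the others between 2.05 and 3.27, and Cd86 at 24.5 CPM with the others between 3.64 and 7.35. The remaining one was Ciita in sham-1, the lowest of its group, with a level of 0 CPM and the others between 0.185 and 0.326. No library of SAH 7d was listed, SAH 7d-5 included, although it was highest for all 5 accessory genes.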

How the results depend on the processing

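Over 624 refits of the 30 fold changes of the 10 genes, the direction changed in 15, all between SAH 7d and SAH 1d and none of them called. RT1-DMa gave -0.078 with the replicate block, -0.10, -0.12 and -0.10 with limma (pseudocount 1, pseudocount 0.1 and no filter) and -0.49 with SAH 1d-3 and SAH 7d-5 both left out, a setting chosen after seeing the data. RT1-DMb gave -0.036, then -0.041, -0.075 and -0.041, then -0.29 in the same settings, and Ifi30 gave -0.20 without the 2 libraries. With 1 library left out at a time, RT1-DMa ran from -0.43 to 0.54, RT1-DMb from -0.28 to 0.94, Ifi30 from -0.27 to 1.93 and Cd86 from -0.28 to 1.63, each lowest without SAH 7d-5.

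Counts of calls varied with the model. The joint fit of all 18 libraries called 2 of the 10 genes (RT1-DMb and Cd86) instead of 4 and 4 pathway genes instead of 12 for SAH 1d against sham, and for SAH 7d against sham it called 5 of the 10 instead of 0 (the 4 chains and Cd74), among 8 genes higher of all 18444. DEGs higher over all genes went from 1028 to 638 for SAH 1d against sham in that fit. The DESeq2 Wald test called 9 of the 10 genes and 8 pathway genes for SAH 7d against sham where edgeR called 0 of each, 4 pathway genes higher for SAH 7d against SAH 1d (Cd4, Ctsh, Ctss and Rfx5) and 1 lower for SAH 1d against sham (Rfx5). With 1 library left out, the genes of the family called ran from 3 to 6 for SAH 7d against SAH 1d (6 with Ciita, without SAH 1d-3) and from 0 to 2 for SAH 7d against sham, the latter being RT1-Da and Cd74 without SAH 7d-4. The pathway genes called higher for SAH 7d against SAH 1d ran from 0 to 1, those called lower from 0 to 2 (Cd274 and Irf1, without SAH 7d-5), and those called lower for SAH 1d against sham from 0 to 1 (Nfyb, without SAH 1d-3). With SAH 1d-3 and SAH 7d-5 both left out, 3 pathway genes were higher and 2 lower for SAH 7d against SAH 1d, and 1 was lower for SAH 1d against sham. The 3 limma fits called 0 pathway genes for SAH 7d against SAH 1d, and the joint fit 2. The cause of these differences was not tested. The difference of the structural genes from DM kept its direction in every setting.

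The labels number the libraries alike in each group, but the numbers do not pair them: the correlation of same-numbered deviations ran from -0.25 to 0.20, and 2 of 18 libraries were most like one of their own number. With the replicate block the genes of the family called for SAH 7d against SAH 1d went from 5 to 0, while their log2 fold changes were 2.53 to 3.24 and DEGs higher over all genes went from 28 to 3, and the pathway genes from 1 to 0. Limma with a pseudocount of 0.1 moved the median of all genes by 0.11 on the log2 scale for SAH 1d against sham. Counts of at most 10 per sham library limit what can be said of Ciita.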

Other observations

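The genes most like the DM pair were ranked in the same way as for the structural genes, over 18 group-centred libraries. RT1-DMb and RT1-DMa, each a part of the mean it was compared with, ranked 1 and 6, which says little. The others among the first 12 were Syngr2, Cd33, a sialic acid receptor of myeloid cells, Man2b1, a lysosomal mannosidase, LOC108348072, Cyth4, Npc2, which carries cholesterol out of the lysosome, Trem2, a lipid receptor of microglia, Csf1r, the receptor on which microglia depend, Fuca1, a lysosomal fucosidase, and Grn, the progranulin precursor, with r from 0.95 to 0.98. Ifi30 ranked 47 and Cd86 938, whereas the 4 chains and Cd74 ranked from 4200 to 5464 of 14076 genes. These values are a description. SAH 7d-5 was the library highest for microglial markers and for both DM genes, and its part in the ranks was not tested.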
